A study of Mus musculus with 9 samples.

Results

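The MYC, MAX and MXD network is a family of transcription factors that pair with one another through a leucine zipper and bind DNA through a basic helix-loop-helix region. Its members were taken by name: Myc, Mycn, Mycl, Max, Mxd1, Mxd3, Mxd4, Mxi1, Mnt and Mlx. All 10 were found among the 35321 genes of the deposited table, and 8 of them reached 1 FPKM in at least 3 of the 9 samples and were tested with 13687 genes in all. Mycn and Mycl stayed below that level and are described by their values and reads. FPKM are fragments scaled by transcript length and by sequencing depth, so levels of different genes can be compared per length.

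RNA came from tumours that LLC cells, a line from a Lewis lung carcinoma of the C57BL/6 strain, had formed under the skin of male C57BL/6 hosts, which were 4 to 5 weeks old. Treatment by intraperitoneal injection began some days later with PBS as the vehicle, with 0.1 mg/kg digoxin or with 1 mg/kg digoxin, and each of these groups has 3 samples. Digoxin is a cardiac glycoside that blocks the sodium-potassium pump. These are called the low and the high dose. No allele or other agent is named in the labels, and every group carried the same cell line and host strain. The host is an immunocompetent strain, and the samples are whole tumour tissue, so in each value fewer cells of a type and less RNA per cell cannot be told apart. Whether a group's samples are different animals is not stated in the labels, and a p-value here covers no more than the spread among them, technical spread possibly included.

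The MYC proteins (from Myc, Mycn and Mycl) each pair with MAX, bind the E-box CACGTG and recruit histone acetyltransferase complexes that activate genes of ribosome biogenesis, nucleotide synthesis and cell growth. The MXD proteins, MXI1 and MNT compete for the same partner and the same sites and bring in the SIN3 and histone deacetylase corepressor instead. MLX is a second partner protein that pairs with some of the repressors and with the glucose-responsive factors MondoA (Mlxip) and ChREBP (Mlxipl). Myc is one of the most often activated oncogenes in carcinomas, and MXD1 and MXI1 are known from cells that leave the cell cycle and differentiate.

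The E-box is also found at the starts of network genes themselves. Promoter windows from RefSeq (build GRCm38.p6, around the start of each gene) were available for 9 of the 10 members, and 4 of these 9 (44.4%) held CACGTG in at least 1 window, against 8.10% of 27025 genes. The motif reads the same on both strands, so 1 search covers both, and it overlaps no other motif searched. The 4 sites are shown with their flanks because they are where MYC-MAX or repressor-MAX dimers could bind in these members, followed by a site each of Cdk4 and Apex1, 2 of the growth genes described further on. Capitals mark the E-box, each sequence is on the gene's strand, and the distance is from the gene's start to the first base of the motif.
Max, chr12:76962234-76962263, minus strand, at -3: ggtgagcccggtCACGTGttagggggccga
Mlx, chr11:101087238-101087267, plus strand, at -40: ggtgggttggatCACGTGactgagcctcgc
Mnt, chr11:74830789-74830818, plus strand, at -123: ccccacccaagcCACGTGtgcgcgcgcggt
Mxd4, chr5:34187912-34187941, minus strand, at -219: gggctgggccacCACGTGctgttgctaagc
Cdk4, chr10:127063512-127063541, plus strand, at -11: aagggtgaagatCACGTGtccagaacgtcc
Apex1, chr14:50924913-50924942, plus strand, at -24: gcgctccagaacCACGTGggggcggagccc
Of the members with an E-box, Max and Mlx passed the test at the high dose and Mlx also at the low dose, while Mnt and Mxd4 passed at neither dose. Windows of Mycn, Mycl, Mxd1, Mxd3 and Mxi1 held no CACGTG, which says only that these letters are not in those stretches.

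The depth in the denominator of the FPKM values was 48649867 to 51810956 with vehicle, 42870997 to 43319883 at the low dose and 40517062 to 42252370 at the high dose. On the first principal component (69.4% of the variance) the vehicle samples scored -55.0 to -47.6 and 4 digoxin samples 35.7 to 37.9. The other 2 digoxin samples stood apart between the groups, with -0.60 for low-dose sample 2 and 9.12 for high-dose sample 1. Where leaving out both of these libraries, a setting chosen after seeing the data, changes the call of a network member, that value is given too. They were picked for lying between the groups. P-values in that setting thus describe only the remaining samples. Over all tested genes, 2952 were higher and 2829 lower at the low dose, a split that was 2403 to 3552 with quantile normalization and 2807 to 3919 with rescaling to TPM. Of the 5 epithelial markers, Epcam reached at most 0.149 FPKM and Cdh1 at most 0.643 FPKM in any sample, and the 3 keratins passed at both doses in unlike directions. Krt8 (log2 4.54 and 5.00) and Krt19 (1.80 and 2.95) were higher and Krt18 (-3.64 and -4.02) lower. Krt19 reached 1 FPKM in digoxin samples only, so it met the filter only through the groups where it was high. The 6 skeletal muscle markers summed to 30.8 to 101.3 FPKM with vehicle, 147 to 298 at the low dose and 49.2 to 1059 at the high dose, and the 6 fibroblast markers to 363 to 389.5 FPKM with vehicle, 207 to 299 at the low dose and 207 to 284 at the high dose. Lum (mean 174 FPKM with vehicle) and Dcn (141) carried most of the fibroblast sum. By the test the 6 fibroblast markers went both ways, with 3 higher and 2 lower at the low dose and 1 higher and 3 lower at the high dose. The 8 leukocyte markers summed to 142 to 183.5 FPKM with vehicle, 222 to 286 at the low dose and 206 to 255 at the high dose. Cd68 alone was 98.4 to 134 FPKM of that sum with vehicle. Of the 5 leukocyte markers tested, 3 were higher at the low dose, and 2 were higher and 1 lower at the high dose. These marker counts stand beside 21.6% higher and 20.7% lower over all tested genes at the low dose. At the high dose the shares were 20.7% higher and 25.2% lower. None of the 6 endothelial markers passed at either dose, and the part of these lists in the results was not tested.

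Measured over the 8 tested members, 2 passed an adjusted p of 0.05 at the low dose against vehicle, where 42.2% of all tested genes passed, and 4 passed at the high dose, where 45.9% did. Mxd1 was higher and Mlx lower at both doses, and Max and Mxd3 were lower at the high dose. Set against those shares, neither count is by itself a result about the network. The median log2 fold change of the 8 members was -0.27 at the low dose and -0.21 at the high dose, beside 0.02 and -0.04 over all tested genes. The 2 comparisons share the vehicle samples. Without the 2 libraries between the groups, 6 of the 8 members passed at each dose, beside 62.1% of all tested genes at the low dose and 62.0% at the high dose. All fold changes refer to log2(FPKM + 1), on which low genes show less than their full change.

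**Figure D1:**
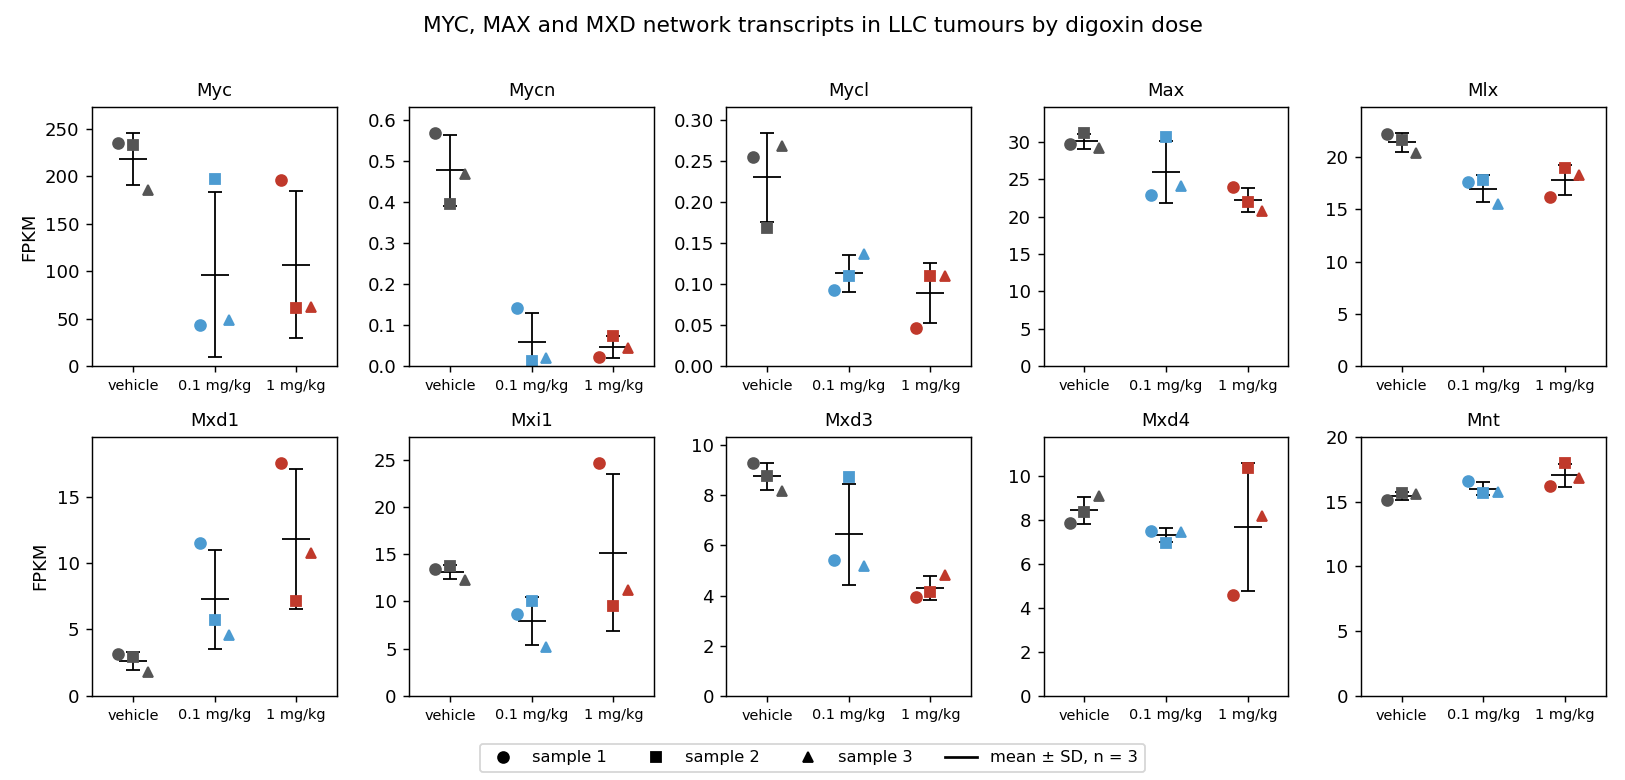
FPKM (vertical axes, each from 0) of the 10 members in the vehicle, low-dose and high-dose groups, with 1 point per sample and the mean ± SD over 3 samples as lines. Myc was 43.7 to 62.3 FPKM in 4 digoxin samples and 196 to 197 FPKM in the other 2, and Mxd1 was higher in every digoxin sample than in every vehicle sample.

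In vehicle tumours the members ran from Myc at the top to Mycl at the bottom. Myc averaged 218 ± 27.7 FPKM (SD, n = 3), followed by Max (30.1 ± 1.01), Mlx (21.4 ± 0.89), Mnt (15.5 ± 0.31), Mxi1 (13.1 ± 0.78), Mxd3 (8.75 ± 0.56), Mxd4 (8.42 ± 0.61), Mxd1 (2.62 ± 0.70), Mycn (0.477 ± 0.087) and Mycl (0.230 ± 0.054). Only the values of the neighbours Mxd3 and Mxd4 overlapped between vehicle samples. Myc held rank 165 to 202 of the 35321 genes by FPKM in these samples. It made up 99.5% to 99.97% of the summed FPKM of the 3 MYC genes in all 9 samples.

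Among the MYC genes, Myc itself split the digoxin samples. With vehicle it had 235, 233 and 186 FPKM, at the low dose 43.7, 197 and 49.1 FPKM, and at the high dose 196, 61.8 and 62.3 FPKM. The 4 low values lay below every vehicle sample, and the 2 high ones, from the libraries between the groups, lay within the vehicle range. Group means were thus 96.7 ± 87.2 FPKM at the low dose against 218 ± 27.7 with vehicle, a log2 fold change of -1.51 (SE 0.61) that missed the threshold (limma adjusted p = 0.0722). The high-dose mean was 107 ± 77.5 FPKM and the log2 fold change -1.24 (SE 0.61, adjusted p = 0.123). The call rests on single libraries. At the low dose Myc was lower by the test without low-dose sample 2 (log2 -2.20, adjusted p = 0.00617) and, with the same fold, without high-dose sample 1, which enters the shared estimate of the spread (adjusted p = 0.0357). In the high-dose comparison it was lower without high-dose sample 1 (log2 -1.79, adjusted p = 0.0280) and without low-dose sample 2 (adjusted p = 0.0372), and in no other fit that left out 1 library. Without both libraries the log2 fold changes were -2.20 (adjusted p = 6.63e-06) and -1.79 (adjusted p = 1.55e-05). These libraries had the highest Myc values of the digoxin samples, so leaving them out lowers the digoxin means by choice. The 2 p-values are thus not evidence of an effect. In that setting 62.1% of all tested genes passed at the low dose and 62.0% at the high dose. By rank, Myc stood at 1264 and 1066 in samples 1 and 3 at the low dose and at 805 and 785 in samples 2 and 3 at the high dose.

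Pvt1, the long noncoding RNA gene next to Myc, followed the same split and was singled out after its values were seen. It had 16.2, 18.4 and 17.3 FPKM with vehicle, 1.25, 13.8 and 1.53 at the low dose, and 8.24, 1.33 and 1.32 at the high dose. All 6 digoxin values were below all 3 vehicle values, a separation found in 27.9% of tested genes at the low dose and 33.1% at the high dose. The log2 fold change was -2.06 at the low dose (SE 0.75, adjusted p = 0.0537) and -2.31 at the high dose (SE 0.75, adjusted p = 0.0338). The high-dose call was lost without high-dose sample 2 (adjusted p = 0.103) or 3 (0.106) and without vehicle sample 1 (0.0765), 2 (0.0878) or 3 (0.0844), and at the low dose it was gained without low-dose sample 2 (0.00386) and without high-dose sample 1 (0.0266). Without both libraries between the groups Pvt1 was lower at the low dose (log2 -2.94, adjusted p = 1.35e-06) and at the high dose (log2 -2.97, adjusted p = 1.25e-06). Again these libraries held the highest digoxin values, so these p-values are not evidence of an effect.

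**Figure D2:**
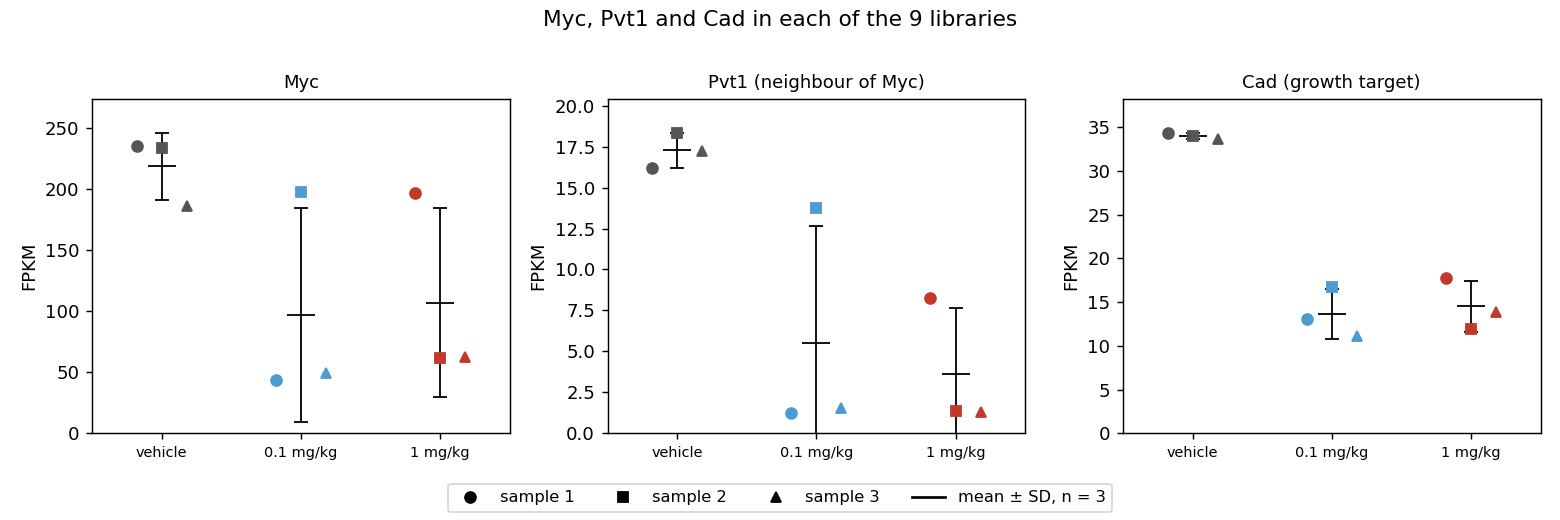
FPKM of Myc, of its neighbour Pvt1 and of Cad, an enzyme gene of pyrimidine synthesis known as a MYC target, per sample and with the mean ± SD over 3 samples (vertical axes start at 0, where 2 SD bars of Pvt1 end). For Myc and Pvt1, low-dose sample 2 and high-dose sample 1 sit above the other samples of their groups, and Cad is between 11.1 and 17.7 FPKM in all 6 digoxin samples.

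Mycn, the paralogue known from neural and embryonic tissue, was read by few fragments. Its values were 0.568, 0.394 and 0.469 FPKM with vehicle (91, 65 and 80 reads), 0.142, 0.014 and 0.021 FPKM at the low dose (20, 2 and 3 reads) and 0.022, 0.075 and 0.045 FPKM at the high dose (3, 10 and 6 reads). Every digoxin sample was below every vehicle sample, the 2 libraries between the groups included. Such a separation was found in 27.9% of tested genes at the low dose and 33.1% at the high dose, a set that leaves out Mycn. Pooled over samples and scaled by depth, the reads came to 0.123 times those with vehicle at the low dose (95% interval 0.0783 to 0.187) and 0.0982 times at the high dose (0.0581 to 0.157). These intervals cover counting error only. In limma-voom on recovered reads of 19302 genes, added after seeing the data, Mycn was lower at the low dose (log2 -3.58, SE 0.67, adjusted p = 0.00462) and at the high dose (log2 -3.38, SE 0.66, adjusted p = 0.00447). In that test 36.3% of the genes passed at the low dose and 38.2% at the high dose. Its filter asked for 10 reads in at least 3 samples, which Mycn met only with the help of the vehicle samples. The test therefore adds no support beyond the values.

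Mycl, the paralogue used by dendritic cells and first found in lung cancers, lay at the same low level. It had 0.255, 0.168 and 0.268 FPKM with vehicle (50, 34 and 56 reads), 0.092, 0.110 and 0.137 FPKM at the low dose (16, 19 and 24 reads) and 0.047, 0.110 and 0.110 FPKM at the high dose (8, 18 and 18 reads). Again no digoxin value reached a vehicle value, as in 27.9% of tested genes at the low dose and 33.1% at the high dose. The pooled ratio of reads to vehicle was 0.491 (0.356 to 0.670) at the low dose and 0.383 (0.267 to 0.542) at the high dose. By limma-voom Mycl was lower at the high dose (log2 -1.41, SE 0.43, adjusted p = 0.0278), while at the low dose it did not pass (log2 -0.99, SE 0.40, adjusted p = 0.0754). The 8 dendritic cell markers summed to 17.3 to 20.3 FPKM with vehicle, 14.7 to 19.3 at the low dose and 6.63 to 13.1 at the high dose. Of the 4 that were tested, 2 were higher and 1 (Clec9a) lower at the low dose, beside 21.6% and 20.7% of all tested genes. At the high dose only Clec9a was lower, beside 25.2%, and it met the filter only with the help of the vehicle samples. None of the 8 markers was at 0 in any sample. Their part in the Mycl values was not tested.

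Max, the shared partner through which MYC and the repressors bind the E-box, differed by a small amount between samples of small spread. Its values were 29.8, 31.2 and 29.2 FPKM with vehicle, 22.9, 30.6 and 24.1 at the low dose, and 23.9, 21.9 and 20.7 at the high dose. All samples at the high dose were below all vehicle samples, as in 33.1% of the tested genes, and low-dose sample 2 lay among the vehicle values. Max was lower at the high dose (22.2 ± 1.62 against 30.1 ± 1.01 FPKM, log2 -0.42, SE 0.11, adjusted p = 0.0144), a call lost without high-dose sample 3 (adjusted p = 0.0537) or without vehicle sample 2 (0.0541). At the low dose it did not pass (log2 -0.22, SE 0.11, adjusted p = 0.138) unless low-dose sample 2 was left out (log2 -0.34, adjusted p = 0.00992), both libraries between the groups were (0.00184) or the samples were rescaled to TPM (adjusted p = 0.0483).

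Mxd1, a repressor induced in many cells as they stop dividing and differentiate, was the only member called higher in the test with all samples. It had 3.13, 2.91 and 1.83 FPKM with vehicle, 11.5, 5.72 and 4.58 at the low dose, and 17.6, 7.12 and 10.7 at the high dose. Every digoxin sample exceeded every vehicle sample, which held for 32.3% of tested genes at the low dose and 25.2% at the high dose. The high-dose mean was 4.50 times that with vehicle (log2 1.76, SE 0.36, adjusted p = 0.00541), a call that no left-out library ended. At the low dose it was 2.77 times (log2 1.12, SE 0.36, adjusted p = 0.0350). That call was lost without low-dose sample 1 (adjusted p = 0.109), without vehicle sample 1 (0.0617), 2 (0.0741) or 3 (0.116), and with no filter on low values (0.0886).

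Mxd1 is also abundant in neutrophils, and many markers of these cells were higher too. Of the 10 neutrophil markers, all tested, 6 were higher at the low dose, beside 21.6% of all tested genes, and 8 at the high dose, beside 20.7%. None was lower by the test, though Mmp9 had a log2 fold change of -0.77 at the low dose and -0.45 at the high dose. Their summed level was 81.1 to 221 FPKM with vehicle, 146 to 818 at the low dose and 517 to 1225 at the high dose. Ly6g was at 0 in 1 vehicle sample. Ly6g, Ngp and Camp reached 1 FPKM in digoxin samples only, and Mmp8 and Cxcr2 would not have met the filter without the digoxin samples. These genes were thus tested only through the groups where they were high. The counts of 6 and 8 include any calls of theirs and are a description, not support. The highest Mxd1 value, in high-dose sample 1, went with the lowest neutrophil sum of its group (517 FPKM), and among the low-dose samples, sample 1 was highest in both. The part of neutrophils in the Mxd1 result was not tested.

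Mxi1, the repressor also called MXD2 and known to be induced by hypoxia, had its highest value in 1 library. With vehicle it had 13.4, 13.7 and 12.2 FPKM, at the low dose 8.67, 10.0 and 5.14 FPKM, and at the high dose 24.7, 9.52 and 11.2 FPKM. The low-dose values were below the vehicle values without overlap, as in 27.9% of tested genes, while high-dose sample 1 lay above them and the other 2 high-dose samples below. Neither comparison passed (log2 -0.70, SE 0.33, adjusted p = 0.115 at the low dose, and 0.08, SE 0.33, adjusted p = 0.860 at the high dose). Without high-dose sample 1 the log2 fold change at the high dose turned to -0.32 (adjusted p = 0.260), and that at the low dose passed (adjusted p = 0.0201), as it did without both libraries between the groups (0.00393) and in a fit of only the 2 groups compared (0.0308). Gm10197, a gene on the opposite strand that the GENCODE annotation lists as protein-coding, shares 194 exon bases with Mxi1 and has no values here.

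Mxd3, which unlike Mxd1 and Mxd4 is known from dividing cells, had 9.30, 8.77 and 8.19 FPKM with vehicle. At the low dose it had 5.42, 8.75 and 5.16 FPKM, and at the high dose 3.96, 4.13 and 4.83 FPKM. The high-dose values were below those of both other groups, and 33.1% of tested genes lay below vehicle in this way. The gene was lower at the high dose, at 0.492 times the vehicle mean (log2 -0.88, SE 0.17, adjusted p = 0.00411), whichever library was left out. At the low dose it did not pass (log2 -0.42, SE 0.17, adjusted p = 0.0715) unless low-dose sample 2 was left out (log2 -0.63, adjusted p = 0.00197), both libraries between the groups were (0.000537), values were quantile normalized (0.0491) or rescaled to TPM (0.0379). The 6 proliferation markers summed to 212 to 223 FPKM with vehicle, 171 to 194 at the low dose and 174 to 183 at the high dose. Of them 3 were lower at the low dose, beside 20.7% of all tested genes, and 2 at the high dose, beside 25.2%. None was at 0 in any sample.

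The Mxd3 values carry a limit of annotation. Its exons share 105 bases with those of Prelid1, a mitochondrial lipid transfer gene on the opposite strand, and whether reads were counted by strand is not stated. Prelid1 had 161 to 185 FPKM with vehicle, 119 to 168 at the low dose and 104 to 139 at the high dose. At its own mean density it would place 442 to 943 reads on the shared bases, which is 84.9% to 156% of the reads counted for Mxd3. Prelid1 was lower at the high dose as well (log2 -0.55, SE 0.16, adjusted p = 0.0205), a call lost without high-dose sample 2 (0.0704) or 3 (0.0640) and without vehicle sample 1 (0.0670) or 2 (0.0582). At the low dose Prelid1 did not pass with all samples (log2 -0.37, adjusted p = 0.0858). Like Mxd3, it passed there without low-dose sample 2 (log2 -0.53, adjusted p = 0.0101) and without both libraries between the groups (0.000667). Its part in the Mxd3 result was not tested, so the values of Mxd3 are uncertain.

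Mxd4, a repressor of resting and differentiating cells, and Mnt, which is present in resting and dividing cells alike, passed at neither dose. Mxd4 had 7.86, 8.34 and 9.07 FPKM with vehicle, 7.49, 6.93 and 7.46 at the low dose, and 4.56, 10.3 and 8.16 at the high dose. The low-dose values lay just below the vehicle values, as in 27.9% of tested genes, and those at the high dose ranged to either side. Neither dose passed (log2 -0.18, SE 0.22 at both, adjusted p = 0.522 and 0.533), and without high-dose sample 1 the sign at the high dose turned (log2 0.11). Its exons share 514 bases with the antisense gene Gm42846, which has no values here. Mnt had 15.1, 15.7 and 15.6 FPKM with vehicle, 16.6, 15.7 and 15.7 at the low dose, and 16.2, 18 and 16.8 at the high dose. The digoxin values were the higher ones at both doses, as in 32.3% of tested genes at the low dose and 25.2% at the high dose. The margin did not pass (log2 0.05, SE 0.07, adjusted p = 0.598, and 0.13, SE 0.07, adjusted p = 0.143). With rescaling to TPM the sign of Mnt at the low dose turned (log2 -0.06), and without both libraries between the groups it passed at the high dose (log2 0.16, adjusted p = 0.0458).

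**Figure D3:**
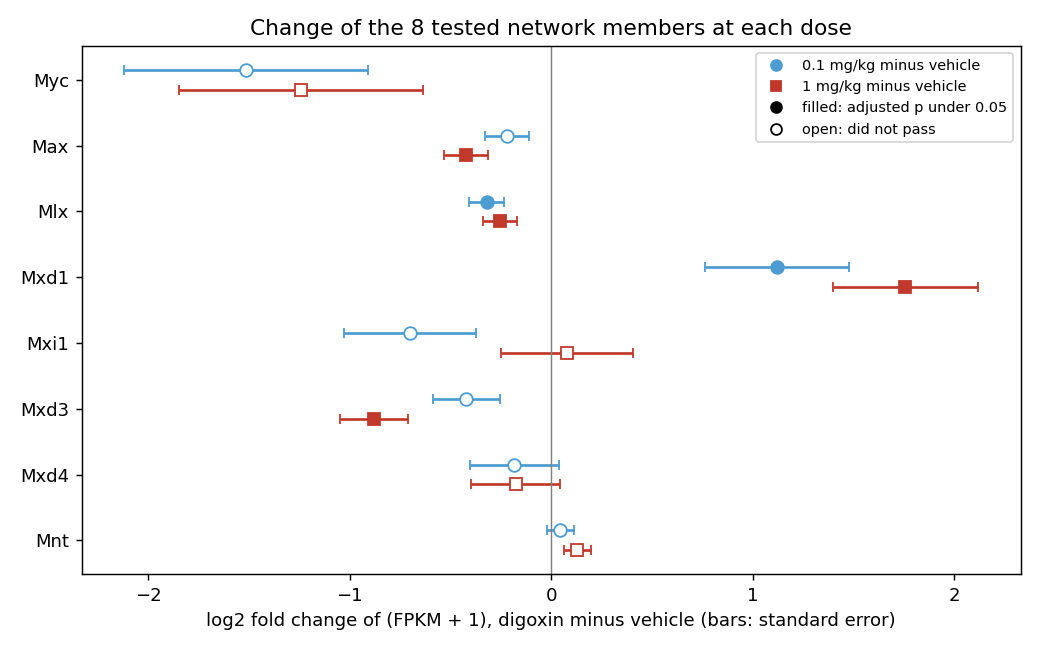
Log2 fold change of (FPKM + 1) on the horizontal axis for the 8 tested members (rows), low dose minus vehicle as circles and high dose minus vehicle as squares, with standard errors as bars and filled symbols for an adjusted p under 0.05. Mxd1 lies at 1.12 and 1.76, Myc has the widest bars (SE 0.61) and Mnt the narrowest (SE 0.07).

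Mlx, the partner that links part of the repressors to the glucose-sensing factors, was lower at both doses by a small amount. It had 22.2, 21.6 and 20.4 FPKM with vehicle, 17.6, 17.8 and 15.5 at the low dose, and 16.2, 18.9 and 18.3 at the high dose. No digoxin value reached a vehicle value, as in 27.9% of tested genes at the low dose and 33.1% at the high dose. At the low dose the log2 fold change was -0.32 (SE 0.09, adjusted p = 0.0180), lost without low-dose sample 3 (adjusted p = 0.0677) and without vehicle sample 1 (0.0592) or 2 (0.0617). In the high-dose comparison it was -0.25 (SE 0.09, adjusted p = 0.0391), and 3 of 9 single-library omissions kept the call. It was lost there without low-dose sample 1 (0.0506), high-dose sample 1 (0.0779) or 3 (0.0743), or vehicle sample 1 (0.111), 2 (0.107) or 3 (0.0684), with no filter (0.0672), without the mean-variance trend (0.0504) and in limma-voom on 19302 genes (0.0593). The exons of Mlx share 385 bases with Psmc3ip on the opposite strand, whose mean density would account for 5.21% to 7.73% of the Mlx reads and whose own level did not pass at either dose (log2 -0.10 and -0.01).

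Set against the partners it pairs or competes with, Myc showed the same split. The ratio of Myc to Max in FPKM was 7.89, 7.48 and 6.37 with vehicle, 1.90, 6.44 and 2.04 at the low dose, and 8.20, 2.82 and 3.0 at the high dose. The 5 repressor genes together summed to 46.9 to 49.4 FPKM with vehicle, 38.1 to 49.7 at the low dose and 49.1 to 67.0 at the high dose. Myc per unit of that sum was 4.81, 4.72 and 3.97 with vehicle, 0.879, 4.19 and 1.29 at the low dose, and 2.93, 1.26 and 1.20 at the high dose. Within the sum the share of Mxd1 was 3.90% to 6.41% with vehicle, 12.0% to 23.2% at the low dose and 14.5% to 26.2% at the high dose, without overlap. The share of Mxi1 was 26.1% to 27.8% with vehicle, 13.5% to 21.3% at the low dose and 19.4% to 36.9% at the high dose. These sums hold Mxd3 with that limit and are transcript levels, not protein.

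**Figure D4:**
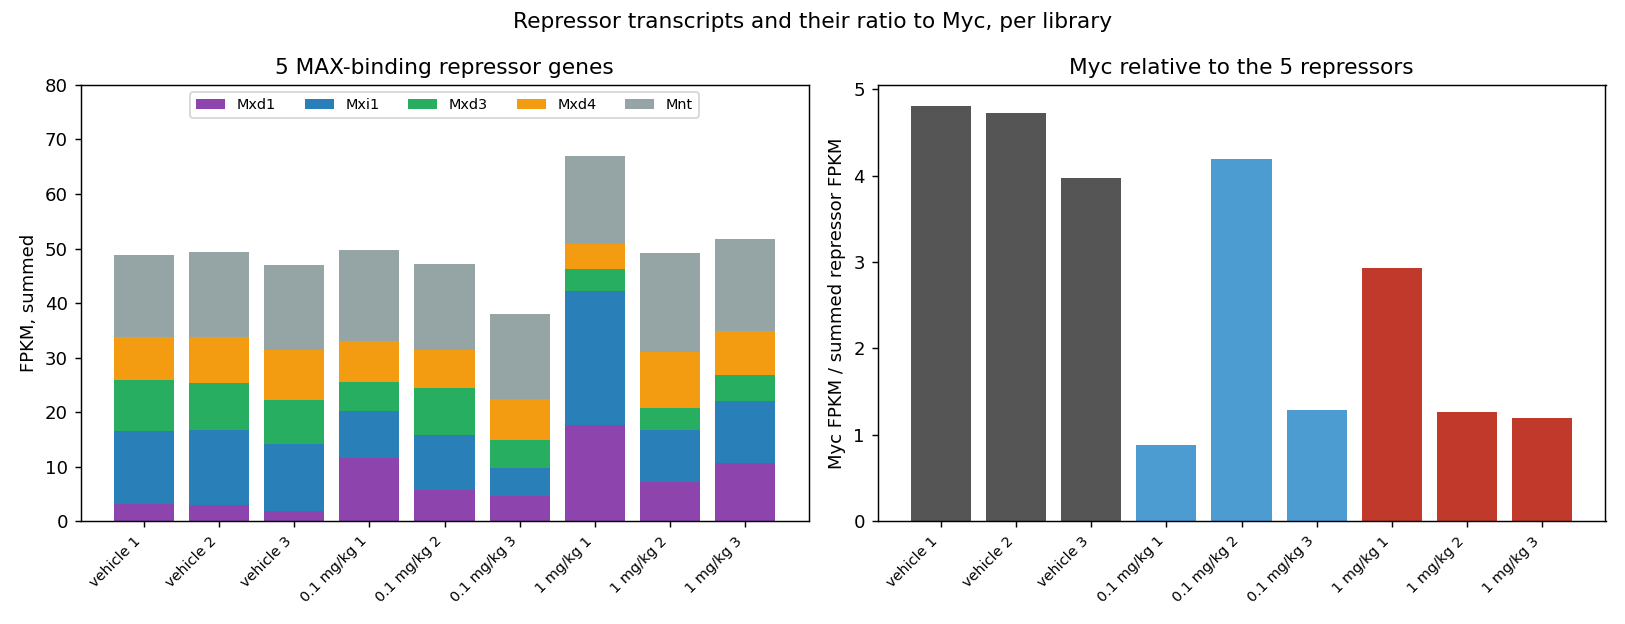
Left, FPKM of the 5 repressor genes stacked for each of the 9 samples. Right, Myc FPKM divided by that sum (bars from 0). The stacks run from 38.1 to 67.0 FPKM with Mxd1 thinnest in the vehicle samples, and the ratio is 0.879 to 1.29 in 4 digoxin samples, 4.19 in low-dose sample 2, 2.93 in high-dose sample 1 and 3.97 to 4.81 with vehicle.

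Between the doses none of the 8 tested members passed, where 0.0146% of all tested genes (2 genes) did. Mxd3 at the high dose was below the low dose without overlap, as in 11.0% of tested genes (log2 -0.46, SE 0.17, adjusted p = 0.281), Mxi1 differed by 0.78 (SE 0.33, adjusted p = 0.349) and Mxd1 by 0.64 (SE 0.36, adjusted p = 0.492). Mxd3 and Mxi1 had an unadjusted p of 0.0235 and 0.0427, the others above 0.05. Limma-voom called none of the members in this comparison.

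Mga, Mlxip and Mlxipl belong to the extended network. Mga, a large protein that pairs with MAX and acts as a repressor, had 4.02, 4.79 and 5.75 FPKM with vehicle, 3.21, 3.65 and 3.03 at the low dose, and 3.43, 3.18 and 3.10 at the high dose. It was lower at the low dose (log2 -0.44, SE 0.12, adjusted p = 0.0192) and at the high dose (log2 -0.46, SE 0.12, adjusted p = 0.0148). The first call was lost without low-dose sample 1 (0.0590) or 3 (0.0704) or vehicle sample 2 (0.0592) or 3 (0.0713), and the second without high-dose sample 3 (0.050) or vehicle sample 3 (0.0557). Mlxip did not pass at either dose (log2 0.08 and 0.06), and Mlxipl was below the filter. Of 4 tested genes known as targets of MLX dimers, only Elovl6, a fatty acid elongase, was lower at each dose (log2 -1.0, SE 0.17, adjusted p = 0.00336, and -1.34, SE 0.17, adjusted p = 0.000985). Txnip, the best known of them, had 61.9 to 70.1 FPKM with vehicle, 76.6 to 86.3 at the low dose and 42.6 to 116 at the high dose. It passed at both doses without high-dose sample 1 (log2 0.27, adjusted p = 0.0337, and 0.66, adjusted p = 0.00172). Without that library Khk, the fructose kinase, also passed at the high dose (log2 0.53, adjusted p = 0.00898), so that 2 of these genes passed at the low dose and 3 at the high dose. Arrdc4 passed at the high dose without low-dose sample 3 (log2 -0.33, adjusted p = 0.0215).

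The proteins that MYC and the repressors recruit were followed through their genes. Of 10 coactivator and cofactor genes, 6 were lower and none higher at the low dose, where 20.7% of all tested genes were lower. At the high dose 4 were lower, beside 25.2%. Ruvbl1, an ATPase of the TIP60 complex, had 55.8 to 59.9 FPKM with vehicle, 36.9 to 46.0 at the low dose and 36.8 to 42.6 at the high dose (log2 -0.49, adjusted p = 0.00551, and -0.56, adjusted p = 0.00274). Kat2a, the acetyltransferase GCN5, was lower at both doses (log2 -0.47 and -0.33), as was Actl6a, an actin-related subunit (log2 -0.40 at both). The count of lower genes at the low dose was 3 without low-dose sample 1 or 3 or vehicle sample 1, and that at the high dose was 3 without high-dose sample 2 or 3 or vehicle sample 1 or 3.

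Of 11 genes of the SIN3 and NCOR corepressors, 4 were lower at each dose and none was higher. All tested genes were lower in 20.7% of cases at the low dose and 25.2% at the high dose, so that count alone sets the list little apart. The 4 were the histone deacetylases Hdac1 (log2 -0.39 and -0.49) and Hdac2 (-0.50 and -0.56), the histone-binding subunit Rbbp7 (-1.36 and -1.38) and Suds3 (-0.30 and -0.29). Rbbp7 had 114 to 115 FPKM with vehicle, 32.0 to 68.3 at the low dose and 36.4 to 52.4 at the high dose. The Suds3 call was lost at the low dose without low-dose sample 1 (0.0698) or 3 (0.0973) or vehicle sample 1 (0.0874) or 3 (0.0730). At the high dose it was lost without high-dose sample 2 (0.0906) or 3 (0.0809) or vehicle sample 1 (0.0959) or 3 (0.0754), with no filter (0.0525) and with equal medians (0.0584). The scaffolds Sin3a, Sin3b and Ncor1 did not pass.

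Of 12 genes that set the lifetime of MYC protein, 6 were lower and 1 higher at the low dose, beside 20.7% lower and 21.6% higher over all tested genes. At the high dose 5 were lower and 3 higher, beside 25.2% and 20.7%. Skp2, a ubiquitin ligase subunit that targets MYC, was lower at both doses (log2 -0.63 and -0.88, SE 0.09 at both, adjusted p = 0.00146 and 0.000423). The deubiquitinase Usp36 (log2 -0.71 and -0.72) and the ubiquitin ligase Huwe1 (-0.52 and -0.51) were lower too. Aurka, a mitotic kinase that can shield MYC proteins, was higher (log2 0.52, adjusted p = 0.0130, and 0.76, adjusted p = 0.00248), with its first call lost without low-dose sample 3 (0.0508). Fbxw7, the ubiquitin ligase best known for MYC turnover, had 2.64 to 3.17 FPKM with vehicle, 2.93 to 3.51 at the low dose and 2.59 to 3.62 at the high dose and did not pass.

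Of 30 growth genes known to be induced by MYC, 23 were lower at the low dose, beside 20.7% of all tested genes, and 22 at the high dose, beside 25.2%, and none was higher. This list, like the others, was chosen with earlier results of these data known, so its counts are a description and not independent support. The median log2 fold change of the 30 was -0.54 and -0.59, beside 0.02 and -0.04 over all tested genes. Many of them act in ribosome biogenesis, and the others include genes of nucleotide and polyamine synthesis, the cell cycle, protein folding, glycolysis and iron uptake. Many have other regulators. Cad, which starts pyrimidine synthesis, had 34.4, 33.9 and 33.7 FPKM with vehicle, 13.0, 16.7 and 11.1 at the low dose, and 17.7, 11.9 and 13.9 at the high dose. Its log2 fold changes were -1.28 (SE 0.16, adjusted p = 0.00110) and -1.19 (SE 0.16, adjusted p = 0.00116). In the 2 libraries where Myc lay within the vehicle range, Cad was thus 16.7 and 17.7 FPKM, below every vehicle value and above the other digoxin samples.

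Ppat, the first enzyme of purine synthesis, was lower at both doses (log2 -0.65 and -0.69). Cdk4, the kinase of the G1 phase, had 148, 144 and 152 FPKM with vehicle, 104, 122 and 102 at the low dose, and 98.3, 84.8 and 89.8 at the high dose (log2 -0.44, adjusted p = 0.00669, and -0.70, adjusted p = 0.000996). Apex1, a DNA repair endonuclease, had 15.2, 12.4 and 12.8 FPKM with vehicle, 7.53, 7.37 and 6.18 at the low dose, and 6.86, 5.32 and 6.23 at the high dose (log2 -0.85, adjusted p = 0.00149, and -1.02, adjusted p = 0.000682). The calls of Cad, Ppat, Cdk4 and Apex1 held in every fit that left out 1 library. Npm1, Odc1, Ldha, Gnl3, Hspe1, Mrto4 and Tert did not pass at either dose, and Ddx18 passed at the low dose only. Ldha, which glycolysis and hypoxia also regulate, had 764 FPKM in high-dose sample 1, above all vehicle samples (448 to 507). Nme1, one of the genes that were lower, has a near-identical neighbour in Nme2, so its count is uncertain.

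The count of lower growth genes at the low dose was 15 without low-dose sample 1 or without vehicle sample 2. Over the fits that left out 1 library it was 15 to 28 at the low dose and 16 to 27 at the high dose. Without both libraries between the groups it was 29 of 30 at the low dose and 26 of 30 at the high dose, with 1 gene, Tert, higher at each. Tert reached 1 FPKM in digoxin samples only, so it met the filter only through the groups where it was high. Its call in that setting therefore adds no support. Promoter windows were available for 24 of the 30, and 7 of these (29.2%) held CACGTG, against 8.10% of all genes. The 7 were Apex1, Cdk4, Eif4e, Hspd1, Ldha, Nme1 and Wdr43.

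**Figure D5:**
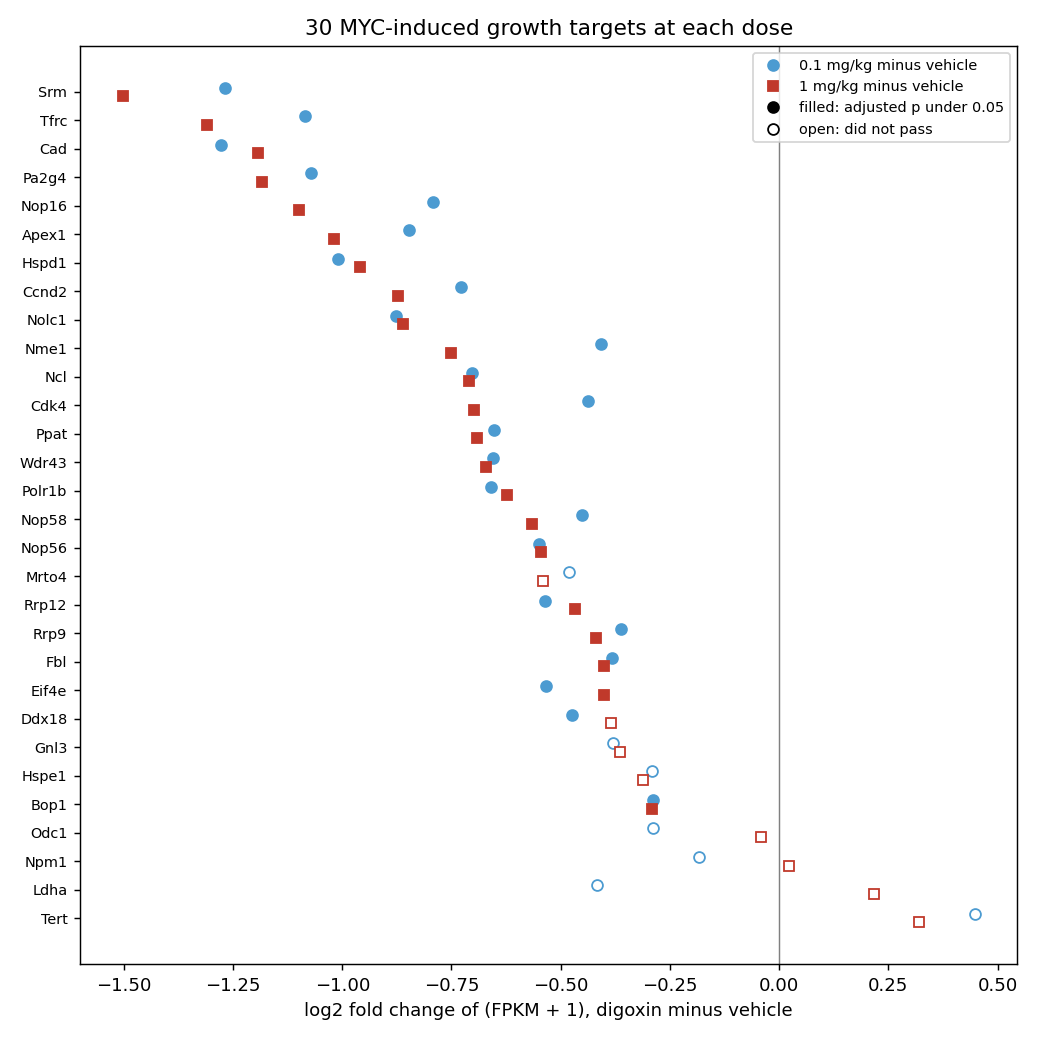
Log2 fold change of (FPKM + 1) on the horizontal axis for 30 growth genes known to be induced by MYC (rows, ordered by the change at the high dose), low dose minus vehicle as circles and high dose minus vehicle as squares, filled where the adjusted p was under 0.05. Filled symbols lie left of 0 in all cases, 23 at the low dose and 22 at the high dose.

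Of 10 tested genes known to be repressed by MYC, 1 was higher at the low dose, beside 21.6% of all tested genes, and 5 at the high dose, beside 20.7%, and none was lower. Ddit3, the stress factor CHOP, had 7.17 to 8.60 FPKM with vehicle, 15.7 to 21.8 at the low dose and 17.8 to 27.2 at the high dose (log2 1.19, SE 0.17, adjusted p = 0.00161, and 1.35, SE 0.17, adjusted p = 0.000885). Ndrg1, a hypoxia-responsive gene, had 13.1 to 16.5 FPKM with vehicle, 14.5 to 23.7 at the low dose and 92.6, 36.1 and 38.5 at the high dose (log2 1.73, adjusted p = 0.00427). The growth arrest genes Gadd45g (log2 0.87, adjusted p = 0.0124) and Gadd45a (0.69, adjusted p = 0.0149) were also higher at the high dose. Gadd45a lost its call without vehicle sample 1 (0.0541) and gained one at the low dose without low-dose sample 2 (0.0218) and without both libraries between the groups (0.00244). The count of higher genes at the low dose was 2 in these fits. Pdgfrb, a growth factor receptor of fibroblasts and pericytes, was lower at the low dose without high-dose sample 1 (log2 -1.23, adjusted p = 0.0152) and without both libraries (log2 -0.82, adjusted p = 0.00386). Cdkn1a, the p21 inhibitor of cell cycle kinases, had 33.4 to 46.1 FPKM with vehicle, 18.2 to 40.8 at the low dose and 24.3 to 67.6 at the high dose and did not pass. Without both libraries it was lower at the low dose (log2 -0.90, adjusted p = 0.00406) and at the high dose (log2 -0.60, adjusted p = 0.0236).

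Of 10 tested regulators of Myc transcription, 5 were lower and 2 higher at the low dose, beside 20.7% and 21.6% of all tested genes. At the high dose 6 were lower and 2 higher, beside 25.2% and 20.7%. Notch1, a receptor whose cleaved form activates Myc, had 2.32, 2.35 and 2.96 FPKM with vehicle, 0.993, 0.867 and 0.897 at the low dose, and 0.855, 0.970 and 1.01 at the high dose (log2 -0.88, SE 0.11, adjusted p = 0.00108, and -0.86, SE 0.11, adjusted p = 0.000985). Notch1 would not have met the filter of 1 FPKM in 3 samples without the vehicle samples, which limits this test. In contrast to Myc, its values in the 2 libraries between the groups were as low as in the other digoxin samples. Ctnnb1, the beta-catenin of the Wnt pathway, was lower (log2 -0.86 and -0.72), and so was Fubp1, which binds a single-stranded element upstream of Myc (log2 -0.56 and -0.50). Stat3, a cytokine-driven activator, was higher at the high dose (log2 0.56, adjusted p = 0.00419) and at the low dose only without low-dose sample 2 (log2 0.38, adjusted p = 0.0138) or without both libraries (0.00893). The number that passed in either direction at the low dose was 3 without low-dose sample 1 or 3 or vehicle sample 2 or 3, 4 without vehicle sample 1 and 3 with no filter. At the high dose it was 5 without high-dose sample 3 and 4 without vehicle sample 2.

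The genes whose log2 values followed Myc most closely over the 9 samples were Net1 (Pearson r 0.992), Osr2 (0.991), Rad23b (0.985), Prlh (0.983) and Fhl2 (0.982). This is a description without a p, and the 9 points fall into clusters of libraries that any gene of the same split shares. Osr2, a zinc finger factor of limb and tooth development, had 17.0, 18.2 and 15.4 FPKM with vehicle, 0.354, 20.7 and 0.516 at the low dose, and 13.1, 0.925 and 0.858 at the high dose. Prlh, which encodes a prolactin-releasing peptide, had 27.8 to 35.3 FPKM with vehicle, 1.10, 44.7 and 0.669 at the low dose, and 23.7, 0.982 and 1.70 at the high dose. In both genes, as in Myc, the 2 libraries between the groups stood near the vehicle samples.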

How the data were processed

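One deposited table held FPKM values of 35321 mouse gene symbols in 9 tumour samples, 1 column per sample, and the groups were taken from the labels. The submitters' processing notes name fastp 0.22.0, HISAT2 2.2.1 and, although the samples are murine, the human build GRCh38. Read counter, annotation and strand setting are not given in the sources used, so no coordinates come from the table. Per the labels' protocols, libraries were poly(A)-selected.

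The depth behind each deposited FPKM column was recovered from the spacing of its values. With that depth, all values of 99.92% of tested genes came out as whole reads to within 0.03 reads. Intervals on reads are exact (95%) and cover counting error only.

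FPKM values were tested as log2(FPKM + 1) for genes reaching 1 FPKM in 3 or more samples, with limma 3.58.1 in R 4.3.3. Notch1 and Clec9a would not have met this filter without the vehicle samples. Krt19, Ly6g, Ngp, Camp and Tert reached 1 FPKM in digoxin samples only. The fit held all 9 samples with 1 mean per group, a mean-variance trend and no replicate block. Tests were two-sided, with Benjamini-Hochberg adjustment over 13687 genes and a threshold of 0.05. The step was tested on simulated data. Limma-voom on recovered reads and leaving out both libraries between the groups were added after seeing the data. The other alternatives were pseudocounts of 0.1 and 0.01, filters, scalings, eBayes settings, a replicate block, single libraries left out and a 2-fold threshold.

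The members and 20 gene lists were chosen with earlier results of these data known. The text names all 10 members, up to 4 tested genes of each list with the smallest p at 1 mg/kg and the 5 genes most like Myc. Other names were chosen after their values were seen. Some list genes are counted in their lists but not reported here by name. Promoter windows are RefSeq's (GRCm38.p6), and shared exon bases come from the GENCODE vM21 annotation, used for neighbours only. Python 3.11.15, NumPy 2.4.6, pandas 2.3.3 and matplotlib 3.10.9 did the rest.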

Additional observations from a re-analysis of the deposited data

How the results depend on the processing

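With 3 samples a group and 2 libraries between the groups, counts of calls moved with single libraries. Leaving out 1 library gave 3387 to 7053 genes at the low dose (5781 with all), 4028 to 7351 at the high dose (6277 with all) and 0 to 121 between the doses (2 with all). For the members it gave 0 to 5 at the low dose (2 with all) and 2 to 5 at the high dose (4 with all). The counts of members at the low dose were 5 with rescaling to TPM and 6 without both libraries between the groups. A 2-fold threshold left 1222 genes and 1 member at the low dose, 1369 genes and 1 member at the high dose, and 1 gene between the doses. With a mean of at least 5 FPKM, 4159 genes passed at the high dose and 1 between the doses. Between the doses 0 genes passed with pseudocounts of 0.1 or 0.01, in a fit of only the 2 groups and with the replicate block, 1 with equal medians or no trend, 10 with no filter and 447 without both libraries, and no member passed in any of these. Low reads limit Mycn and Mycl, at 2 to 91 and 8 to 56 reads a sample.

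The replicate block gave 4967, 5541 and 0 genes and 2, 3 and 0 members in the 3 comparisons, with the Mlx call at the high dose lost (adjusted p = 0.0621). Deviations of samples with the same number correlated by 0.193, 0.132 and 0.0908 between 0.1 mg/kg and vehicle, where each low-dose sample correlated best with its own number, by 0.00057, -0.0587 and -0.0062 between 1 mg/kg and vehicle, and by -0.244, -0.441 and 0.279 between the doses, so the numbers were not taken to pair the samples.

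Directions that turned belonged to values that did not pass. With rescaling to TPM these were Mnt (-0.065) and Mlxip (-0.019) at the low dose and Mxi1 (-0.0069) and Mlxip (-0.015) at the high dose. Leaving out single libraries, the log2 fold change at the low dose ran from -0.21 to 0.030 for Arrdc4 (positive without low-dose sample 3). At the high dose it ran from -0.32 to 0.33 for Mxi1 and from -0.40 to 0.11 for Mxd4 (turned without high-dose sample 1, also where both libraries between the groups were left out). For Mlxip it ran from -0.044 to 0.20 and for Txnip from -0.052 to 0.66 (turned without high-dose sample 2). Between the doses Myc ran from -0.28 to 0.96 (negative without low-dose sample 1 or 3 or high-dose sample 1). Mxd4 there ran from -0.22 to 0.30 (negative without low-dose sample 2 or high-dose sample 2 or 3) and was -0.0020 and -0.0031 with pseudocounts of 0.1 and 0.01 and -0.0070 and -0.0071 in the limma-voom fits. The cause was not tested.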
